A study of Mus musculus with 9 samples.

Results

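The 9 genes described here are *Hsd3b6* and 8 other genes of steroid hormone synthesis and conversion, out of 55450 genes counted in each library. They are *Star*, *Cyp11a1*, *Cyp17a1*, *Hsd3b6*, *Hsd3b1*, *Hsd3b2*, *Hsd17b1*, *Cyp19a1* and *Srd5a1*. The genes were chosen by name with the embryo and adult levels in these libraries already known, so they were selected on measured values. Their difference between embryo and adult is therefore given as a description, without a test.

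RNA was sequenced from the mouse pituitary at 2 stages to compare its transcriptome before and after birth. Rathke's pouch, the oral epithelial pocket from which the anterior and intermediate lobes form, was taken from 7 embryos at e13.5. All 7 embryos were *Sox2Egfp/+*, carrying 1 copy of a fluorescent reporter allele at the *Sox2* locus. The adult tissue was the pituitary of 2 mice at postnatal week 8 without its posterior lobe. Embryos and adults shared a mixed 129Sv/c57BL6J background, and no *Sox2* genotype is given for the adults. Both stages held animals of both sexes, and sex is not assigned to single libraries. Each library came from 1 animal, so the spread reported is between animals, and stage, genotype as far as it is stated, and dissection changed together and cannot be told apart.

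Steroid hormones are made from cholesterol in a short series of steps. STAR brings cholesterol to the inner mitochondrial membrane, CYP11A1 cleaves its side chain to give pregnenolone, and enzymes of the HSD3B family convert pregnenolone and related steroids to progesterone and other hormonally active forms. The pathway is best known in adrenal gland, gonad and placenta, and the pituitary is known mainly for the hormones that drive it there.

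The number of read pairs counted on genes ran from 16738863 in embryo 1 to 28537311 in embryo 2, and was 36421545 and 31191117 in adults 1 and 2. The unit of level is CPM, a count scaled for library size after TMM normalisation, which sets each library by the bulk of its genes. Embryos 1 and 4 stood apart from the other 5. Only 59.7% and 62.8% of their read pairs fell on genes, where the other 5 had 73.9% to 80.0%. Of their read pairs, 21.7% and 26.1% aligned in several places, where the other 5 had 14.1% to 19.7%. Counts on 6 globin genes took 14.4% and 16.7% of all counts on genes in embryos 1 and 4, 0.765% to 2.04% in the remaining 5, and 0.0826% and 0.214% in adults 1 and 2. Read pairs that aligned in several places are left out of these shares. The levels of *Hsd3b6*, *Hsd3b1* and *Hsd3b2* against the adults are also given without these 2 embryos.

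*Hsd3b6* had the highest level per kb of the 9 genes in the embryos and was at 0 counts in both adults. *Hsd3b1* and *Hsd3b2* were also found in embryos alone, and far below *Hsd3b6* in each of them. *Star* and *Cyp17a1* were low at both stages and below both adults in every embryo, *Hsd17b1* was low with the stages overlapping, and *Srd5a1* was moderate at both stages. *Cyp11a1* and *Cyp19a1* were close to or at 0 throughout. Of the 9 genes, 7 averaged 5 or more counts per library and entered the fit across all genes. The other 2, *Cyp11a1* and *Cyp19a1*, did not. Across all 19371 genes tested, 25.8% lay past an adjusted p of 0.05 and a fold change of 4, with 11.3% higher in the embryo and 14.6% higher in the adult. Of the 9 genes, 4 lay past these thresholds, 3 with the embryo higher and 1 with the adult higher. That count is no test of them, and nothing is read from it, because they were chosen with this contrast known.

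**Figure D1:**
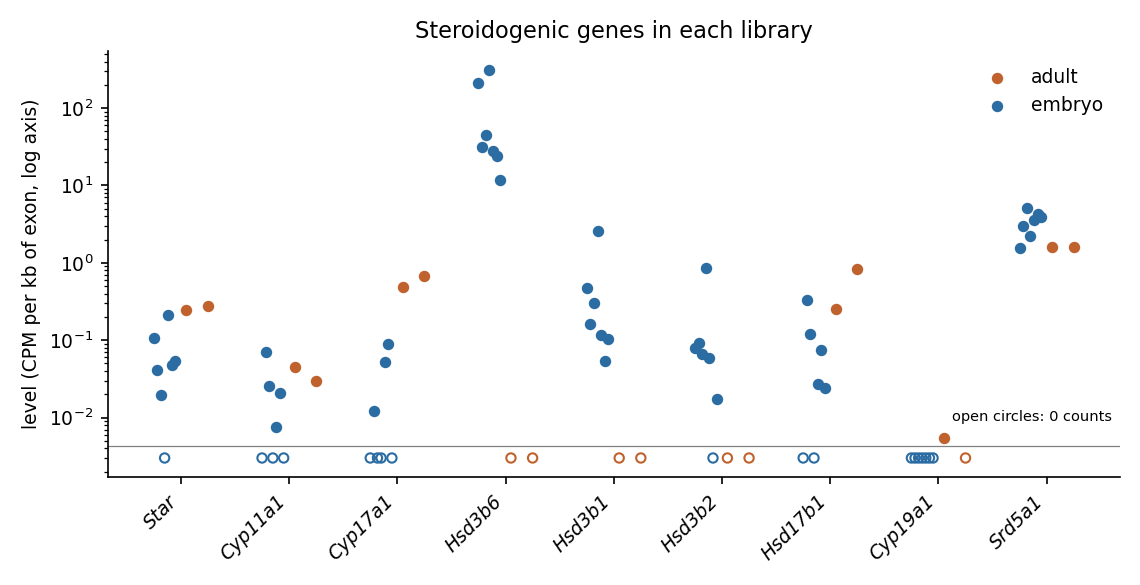
Level of each of the 9 genes in each library, in CPM per kb of exon on a log axis, ordered by step of the pathway. Filled points are single libraries (7 embryos, 2 adults) and open circles below the line are libraries with 0 counts. *Hsd3b6* lies between 11.7 and 310 CPM per kb in the embryos and at 0 counts in both adults.

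*Star*, the cholesterol transfer protein of the first step, was found at 1.02 and 1.12 CPM in adults 1 and 2 (42 and 40 counts). In the embryos its level ran from 0 CPM in embryo 4 through a median of 0.198 to 0.870 in embryo 5. All 7 embryos were below both adults, and the log2 fold change of embryo over adult was −1.89 (standard error 0.95), or −2.51 without embryo 5. The count used is specific to the strand of the gene. The unstranded count at *Star* was 361 and 270 in the adults and 17 to 112 in the embryos, and a gene on the opposite strand ends beside it.

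*Cyp11a1*, the side chain cleavage enzyme, had 9 and 5 counts in the adults and 0 to 10 in the embryos, with 3 embryos at 0. The embryo with 10 counts, embryo 2, was above both adults in CPM (0.338 against 0.218 and 0.141), so the groups overlapped. *Cyp17a1*, which catalyses the 17-hydroxylase and 17,20-lyase reactions, was at 1.36 and 1.88 CPM in the adults (56 and 67 counts). Only 3 of the 7 embryos had any *Cyp17a1* count, with 1, 4 and 5 counts in embryos 2, 5 and 6. The log2 fold change was −4.60 (standard error 1.08), or −5.36 without embryo 6, and the groups did not overlap.

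*Hsd3b6* (ENSMUSG00000027869.14) encodes a 3-beta-hydroxysteroid dehydrogenase, known in the mouse from aldosterone-producing cells of the adrenal cortex and from steroidogenic cells of the placenta. It lies on the minus strand at chr3:98805504-98814443 (GRCm38). Its counts were 5270, 1661, 2004, 7912, 1390, 881 and 658 in embryos 1 to 7, and 0 and 0 in adults 1 and 2. In CPM these were 386, 56.1, 81.4, 558, 50.4, 43.6 and 21.1 in the embryos. Embryos 1 and 4 were the highest, embryo 7 was the lowest, and the other 4 lay between 43.6 and 81.4. A count of 0 allows up to 3 counts, which is 0.0727 and 0.0843 CPM in adults 1 and 2, and such floors cover counting error only. Against the larger of these floors, the embryo mean of 171 CPM (SD 212, n = 7) was at least 2027-fold higher. Without embryos 1 and 4 the bound was 599-fold, without embryo 4 alone it was 1262-fold, and for embryo 7, the lowest, it was 250.3-fold. In bulk tissue, fewer cells that express a gene and less RNA per cell cannot be told apart.

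**Figure D2:**
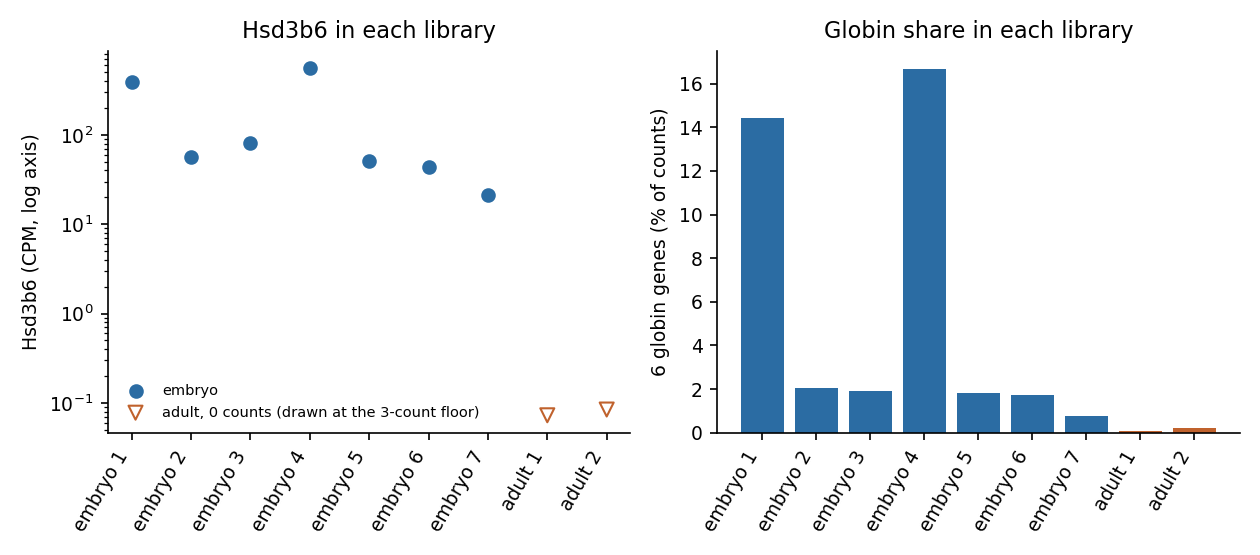
Left, *Hsd3b6* level in each library in CPM on a log axis, with the adults, at 0 counts, drawn as open triangles at the floor of 3 counts. Right, counts on 6 globin genes as a percentage of all counts on genes in the same libraries. Embryos 1 and 4 are the highest in both plots and embryo 7 is the lowest embryo in both.

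The 250 bases before the annotated start of *Hsd3b6* are shown because its transcript had the widest separation between the stages of the 9 genes, and those of *Hsd3b1* and *Hsd3b2* because both are close relatives with low counts in the same embryos. Sequences are from RefSeq (GRCm38.p6, minus strand for all 3), at chr3:98814444-98814693, chr3:98859795-98860044 and chr3:98724544-98724793. Capitals mark AGATAA or TGATAA, the letters that GATA factors are known to bind, and CCACCC, a core of the CACCC box, on either strand. These motifs were picked after the levels in the embryos had been seen.
Hsd3b6: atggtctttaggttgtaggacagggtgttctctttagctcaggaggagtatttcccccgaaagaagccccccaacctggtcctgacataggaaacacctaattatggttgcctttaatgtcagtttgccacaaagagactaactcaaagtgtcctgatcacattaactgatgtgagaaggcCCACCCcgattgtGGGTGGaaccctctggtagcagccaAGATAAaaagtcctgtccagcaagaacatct
Hsd3b1: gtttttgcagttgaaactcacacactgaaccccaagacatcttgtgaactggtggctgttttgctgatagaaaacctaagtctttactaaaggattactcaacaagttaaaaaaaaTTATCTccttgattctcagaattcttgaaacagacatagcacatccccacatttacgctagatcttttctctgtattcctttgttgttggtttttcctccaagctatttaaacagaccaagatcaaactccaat
Hsd3b2: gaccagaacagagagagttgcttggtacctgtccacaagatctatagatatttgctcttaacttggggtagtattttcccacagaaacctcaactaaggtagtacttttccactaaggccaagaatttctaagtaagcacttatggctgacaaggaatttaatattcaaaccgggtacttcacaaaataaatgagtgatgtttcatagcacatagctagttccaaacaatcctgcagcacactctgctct
The *Hsd3b6* window held AGATAA 31 to 26 bases before the start, and CCACCC on each strand, 69 to 64 and 56 to 51 bases before it. The *Hsd3b1* window held AGATAA on the opposite strand, 134 to 129 bases before the start, and no CCACCC, and the *Hsd3b2* window held neither. Among all 32851 promoters of the table cut to the same 250 bases, 16.6% held AGATAA or TGATAA, 28.1% held CCACCC on either strand and 3.45% held both. The motif AAGGTCA, which the steroidogenic regulator NR5A1 is known to bind, was in none of the 3 windows and in 4.08% of all promoters. A match is a description of the letters alone. Of the 9 genes, 6 had a promoter in the table, and *Star*, *Cyp17a1* and *Hsd17b1* did not.

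*Hsd3b1*, whose product is the main HSD3B enzyme of mouse adrenal and gonad, had 12, 9, 14, 68, 6, 2 and 6 counts in embryos 1 to 7 and none in the adults. Embryo 4 was at 4.80 CPM and the other embryos between 0.0990 and 0.879. Against the floor, the embryo mean of 1.01 CPM was at least 12.0-fold higher, while the bound was 4.47-fold without embryo 4 and 3.28-fold without embryos 1 and 4. *Hsd3b2* had 4, 10, 6, 45, 6, 0 and 2 counts in the embryos and none in the adults, a bound of 7.34-fold, or 2.28-fold without embryo 4 and 2.05-fold without embryos 1 and 4. For each 1000 counts of *Hsd3b6* there were 2.27 to 9.12 counts of *Hsd3b1* and 0 to 6.02 of *Hsd3b2*. Both genes were highest in embryo 4, as *Hsd3b6* was, while embryo 1 was the next highest for *Hsd3b1* and lay among the others for *Hsd3b2*.

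Of the other members of the family, *Hsd3b3* had 1 count in embryo 2 and 9 in embryo 4 and none elsewhere, and *Hsd3b4* and *Hsd3b5* had none in any library. All 1536 windows of 75 bases, the length of 1 read, in the *Hsd3b4* transcript were also found in other annotated genes, so its 0 says nothing of its level. *Hsd3b7*, on another chromosome, encodes an enzyme of bile acid synthesis. It had 37 and 32 counts in the adults and 0 to 9 in the embryos, all 7 of which were below both adults in CPM. Its log2 fold change of −2.32 (standard error 0.97, edgeR adjusted p = 0.0548) did not pass the test. *Hsd3b7* lies within a longer gene annotated on the same strand and 1684 of its 1754 windows were shared with other genes, and its unstranded count was 0 in every library, so its level is uncertain. The 6 genes *Hsd3b1* to *Hsd3b6* lie in 361 kb of chromosome 3 together with 10 annotated pseudogenes. Over the aligned bases, the transcript of *Hsd3b6* was 93.1% identical to that of *Hsd3b2*, 94.1% to *Hsd3b3* and 84.9% to *Hsd3b1*. Of the 1728 windows of 75 bases in the *Hsd3b6* transcript, 137 (7.93%) were also found in *Hsd3b2* or *Hsd3b3*, and no window of *Hsd3b1* was found in another gene of the family. Reads that fitted several genes equally were not counted, so low counts of *Hsd3b2* and *Hsd3b3* beside a far more abundant relative are uncertain.

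*Hsd17b1*, which reduces oestrone to oestradiol, was at 0.339 and 1.12 CPM in the adults (14 and 40 counts) and at 0 to 0.439 CPM in the embryos. Of the embryos, 6 were below both adults and embryo 2, with 13 counts, lay between them. The log2 fold change was −2.58 (standard error 1.08), and it was −3.53 without embryo 2, −3.23 without adult 1 and −3.70 with a correction for transcript length and GC content. *Cyp19a1*, the aromatase that makes oestrogens from androgens, had 1 count in adult 1 and none in any other library. *Srd5a1*, the steroid 5-alpha-reductase that acts on testosterone and progesterone, was at 4.65 and 4.61 CPM in the adults and ran from 4.47 CPM in embryo 1 through a median of 10.5 to 14.8 in embryo 3. It was above both adults in 6 embryos, with embryo 4 the next lowest at 6.42, and the log2 fold change was 1.09 (standard error 0.45). *Srd5a1* was thus lowest in embryos 1 and 4, the embryos with the highest *Hsd3b6*.

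Per kb of exon, the median embryo levels were 31.1 CPM for *Hsd3b6*, 3.61 for *Srd5a1*, 0.164 for *Hsd3b1*, 0.0660 for *Hsd3b2*, 0.0482 for *Star*, 0.0271 for *Hsd17b1* and 0.00754 for *Cyp11a1*, with *Cyp17a1* and *Cyp19a1* at 0. The lowest embryo for *Hsd3b6*, at 11.7 CPM per kb, was above the highest for *Srd5a1*, at 5.10. *Srd5a1* and *Hsd3b1* overlapped between libraries, because *Hsd3b1* reached 2.59 in embryo 4, and the genes below them overlapped with their neighbours in this order. In the adults the order per kb was *Srd5a1* at a median of 1.59, *Cyp17a1* at 0.585, *Hsd17b1* at 0.547, *Star* at 0.260 and *Cyp11a1* at 0.0373. The adult ranges of *Cyp17a1* and *Hsd17b1* overlapped, and so did those of *Hsd17b1* and *Star*.

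Between the embryos the *Hsd3b6* level differed 26.4-fold from the lowest to the highest, and 3.85-fold among the 5 embryos other than 1 and 4. Those 5 were ordered 3, 2, 5, 6 and 7 from high to low, and embryos 2, 5 and 6 lay close together, between 43.6 and 56.1 CPM. Without embryo 7 the range across the others was 12.8-fold, and with library size alone in place of TMM it was 16.5-fold over all 7.

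Markers of the cell types that a dissected pouch could hold were summed in each library beside *Hsd3b6*. The erythroid list of 6 globin genes, all 6 found in every embryo, summed to 177041, 19639, 19431, 221485, 16192, 19245 and 6324 CPM in embryos 1 to 7. Embryos 1 and 4 were thus at 9.11 and 11.4 times the embryo median in globin, and embryo 7 was the lowest, as they were for *Hsd3b6*. The embryonic globin *Hbb-y* was the most abundant in the embryos, at 4334 to 128827 CPM. In the adults the list summed to 729 and 1876 CPM, the adult globin *Hbb-bs* was the most abundant, *Hbb-y* had 9 and 4 counts and the embryonic globin *Hba-x* had 1 and 1. The part of red cell RNA in the level of *Hsd3b6* was not tested.

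None of the other marker lists put embryos 1 and 4 together above the rest by a like amount. Early pituitary factors (6 of 6 found in every embryo, *Pitx1* the most abundant) summed to 469 to 1174 CPM, with embryo 1 at the median and embryo 4 beside it. Pituitary hormone genes summed to 870 to 1920 CPM in the embryos, mostly *Cga*, with embryos 1 and 4 the highest at 1.51 and 1.27 times the median, and to 152482 and 160059 CPM in the adults, where *Gh*, *Prl* and *Pomc* were the most abundant. Defining markers of the labelled tissue were thus found at both stages.

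Markers of the tissues in which *Hsd3b6* is best known were at or near 0 in the embryos, apart from *Nr5a1*, *Prl3b1* and low counts of a few others. Of the 7 markers of adrenal cortex and gonad, *Cyp11b1*, *Cyp21a1*, *Insl3* and *Lhcgr* were at 0 in all embryos, and the list summed to 1.09 to 3.66 CPM there, mostly *Nr5a1*. In the adults it summed to 53.4 and 52.9 CPM, again mostly *Nr5a1*, which pituitary gonadotrophs are known to express, with *Cyp11b1* and *Cyp21a1* at 0. Of the 5 markers of trophoblast giant cells, *Prl3d1*, *Prl2c2* and *Hand1* were at 0 in all 9 libraries. The list summed to 0.934 to 3.39 CPM in the embryos, with *Prl3b1* the most abundant and embryo 4 the highest. In adults 1 and 2 the trophoblast list summed to 0.267 and 0.0562 CPM, below every embryo.

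The remaining lists measured neighbouring tissue, each given with its gene of highest embryo mean. Mesenchyme (5 of 5 found in every embryo, *Col3a1* the most abundant) summed to 560 to 2076 CPM, against 573 and 371 in adults 1 and 2. Cartilage (2 of 4, *Col2a1*) summed to 161 to 374 CPM against 15.01 and 8.83, and skeletal muscle (2 of 4, *Tnnt1*) to 7.19 to 16.9 against 8.36 and 7.98. Stratified epithelium (3 of 5, *Krt5*) summed to 2.50 to 8.37 CPM against 3.10 and 2.78, and neural and posterior pituitary genes (4 of 6, *Tubb3*, with *Avp* at 0) to 90.6 to 350.1 against 81.4 and 47.5. *Avp* had 72 and 122 counts in the adults and *Oxt* had 65 and 60, though their posterior lobe had been removed. Endothelium (3 of 3, *Cdh5*) summed to 72.3 to 289 CPM against 87.7 and 49.8, and macrophage (3 of 3, *C1qb*) to 60.6 to 160 against 54.6 and 83.4. In embryos 1 and 4, endothelium was at 0.88 and 0.63 times the embryo median and macrophage at 1.32 and 1.01 times.

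**Figure D3:**
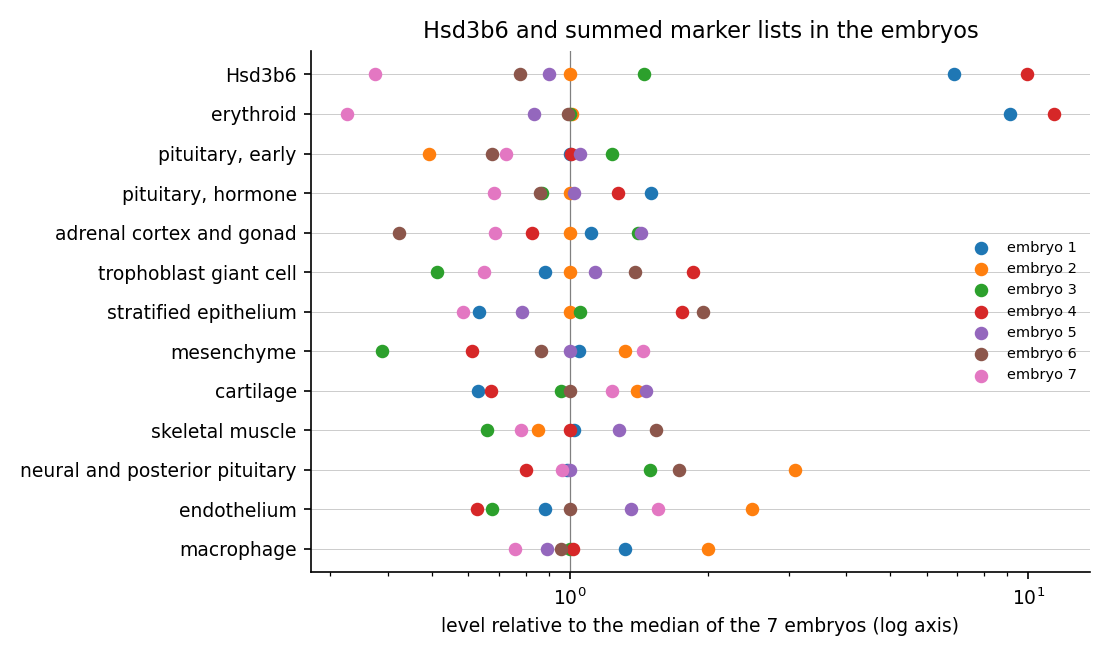
*Hsd3b6* CPM and the summed CPM of each marker list in each of the 7 embryos, relative to the median embryo of that line, on a log axis. The erythroid list is at 9.11 and 11.4 in embryos 1 and 4, and the other lists are at 3.09 or below in every embryo.

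Counted against globin, *Hsd3b6* varied less between embryos than in CPM. For each 100000 globin counts there were 218, 286, 419, 252, 311, 227 and 334 counts of *Hsd3b6* in embryos 1 to 7, a range of 1.92-fold, or 1.85-fold without embryos 1 and 4. Read pairs that aligned in several places are missing from the globin counts, and embryos 1 and 4 had the most such pairs (21.7% and 26.1%). How far this lowered the globin counts, and so moved these ratios, was not tested. *Alas2*, the first enzyme of haem synthesis in red cells, was chosen after its values were seen, so its ratio supports nothing further, and for each 100 of its counts there were 29.6, 31.0, 39.2, 26.7, 39.4, 30.3 and 45.5 counts of *Hsd3b6*. Globin and *Alas2* were both highest in embryo 4, next in embryo 1 and lowest in embryo 7, as *Hsd3b6* was.

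In the adults summed globin and *Trim10* were below every embryo. Globin was at 729 and 1876 CPM, against 6324 or more in the embryos, and its embryonic forms were nearly absent. *Trim10*, a gene known from maturing red cells, was at 0.703 and 1.52 CPM, against 3.21 or more in the embryos. *Alas2* overlapped the embryos. Adults 1 and 2 were at 33.5 and 99.3 CPM of *Alas2* (1383 and 3532 counts), beside 46.4 CPM in embryo 7.

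**Figure D4:**
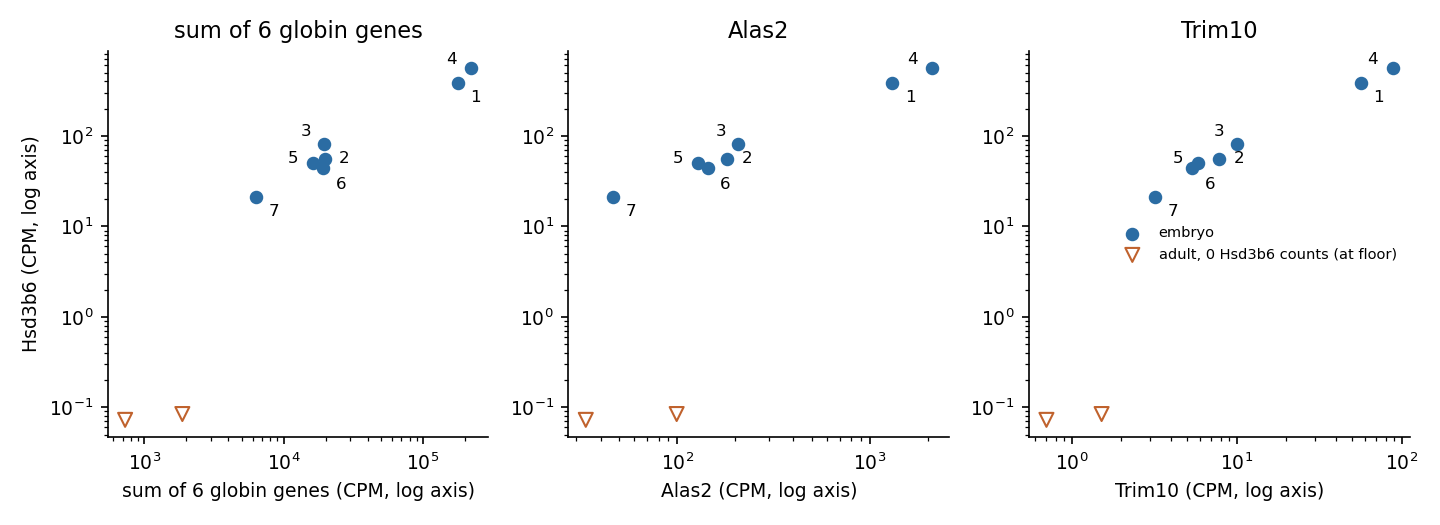
*Hsd3b6* against the summed globin genes, *Alas2* and *Trim10* in the 9 libraries, in CPM on log axes, with the adults at the floor of 3 counts. *Trim10* was picked for its likeness to *Hsd3b6* in these embryos, and *Alas2* after its values were seen. Embryos 1 and 4 are the highest and embryo 7 the lowest embryo on both axes of each plot.

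The genes whose levels most resembled *Hsd3b6* were found from the Pearson correlation of log2(CPM + 0.5) over the 7 embryos, among 14806 genes with a mean of at least 1 CPM there. The 5 highest were *Hba-x* (r = 0.997), *Gm48181* (r = 0.996), *Hba-a1* (r = 0.996), *Hba-a2* (r = 0.996) and *Trim10* (r = 0.996). Spearman's rho was 0.964 for *Hba-a1* and 1 for the other 4, and 18 genes in all had a rho of 1. Of the 5 highest by r, 3 are alpha-like globins, which are related genes and not separate cases. *Gm48181* is an unclassified transcript annotated on chromosome 12. Without embryos 1 and 4, over 5 embryos, r was 0.984 for *Hba-x*, 0.969 for *Gm48181*, 0.964 for *Hba-a1*, 0.966 for *Hba-a2* and 0.981 for *Trim10*. The points share their libraries, their depth and the 2 embryos that stand apart, so these values describe likeness in these libraries alone. Across all genes compared, over all 7 embryos, the median r was −0.11, and 357 genes (2.41%) exceeded 0.9, among them all 6 globins. Membership among the 5 highest moved with single libraries, since 2 of the 5 stayed without embryo 4 and 0 without embryo 6, while the lowest r of *Hba-x* with any embryo left out was 0.995.

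The windows before *Hba-x* and *Trim10* are shown beside that of *Hsd3b6* because *Hba-x* had the highest r, and *Trim10* is the gene with a known red cell role among the 5 that is not a globin. They are from RefSeq (GRCm38.p6, plus strand), at chr11:32276350-32276599 and chr17:36869324-36869573, with capitals for the same letters.
Hba-x: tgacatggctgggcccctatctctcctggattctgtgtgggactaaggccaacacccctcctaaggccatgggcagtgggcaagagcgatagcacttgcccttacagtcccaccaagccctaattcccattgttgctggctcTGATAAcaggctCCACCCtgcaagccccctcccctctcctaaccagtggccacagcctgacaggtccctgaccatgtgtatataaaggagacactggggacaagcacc
Trim10: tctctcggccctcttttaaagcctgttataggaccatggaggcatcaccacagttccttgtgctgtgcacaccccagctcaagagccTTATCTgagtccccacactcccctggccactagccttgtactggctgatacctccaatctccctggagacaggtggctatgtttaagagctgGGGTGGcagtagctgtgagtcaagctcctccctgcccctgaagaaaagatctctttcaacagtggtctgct
The *Hba-x* window held TGATAA 108 to 103 bases and CCACCC 96 to 91 bases before the RefSeq start. That start lies 200 bases inside the gene as annotated for counting, so both motifs lay within the annotated gene. The *Trim10* window held AGATAA 163 to 158 bases and CCACCC 71 to 66 bases before the start, each on the opposite strand. The windows of *Hba-a1* and *Hba-a2* are the same sequence shifted by 3 bases, so they count as 1 case, and held TGATAA and CCACCC. The RefSeq start of *Hba-a1* lies 161 bases inside the annotated gene, and its CCACCC was within it. Genes and motifs were picked after the levels were seen, so nothing is read from their number. Among the other members, none of the promoters of *Srd5a1*, *Cyp11a1* and *Cyp19a1* held AGATAA or TGATAA, while CCACCC was in both promoters of *Cyp11a1* and in 1 of the 3 of *Cyp19a1*. The RefSeq starts of these 3 genes also differed from those used for counting.

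The wider pathway was described with 60 further genes of cholesterol supply, steroid conversion and their regulation, of which 57 were matched, 39 were tested and 11 were at 0 in every library. Of the 39, 12 (30.8%) passed both thresholds, 7 of them higher in the embryo and 5 in the adult, against 25.8% of all genes tested. With a correction for transcript length and GC content the split was 5 and 8, so no direction of the list is read from it. The median log2 fold change of the list was 0.02, also with *Hsd17b3* at its bound, against −0.04 for all genes. P-values here are from edgeR, adjusted over all genes. They set each difference against a spread between animals that is fitted jointly for both stages. With 2 adults, that spread comes mostly from the embryos.

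Cholesterol supply did not pass both thresholds at any of its 7 genes, and among the electron carriers *Cyb5a* alone did so. *Cyb5a*, cytochrome b5, which aids the lyase reaction of CYP17A1, ran from 195 through a median of 309 to 611 CPM in the embryos, against 59.4 and 61.3 in the adults. It was higher in 7 of 7 embryos (log2 fold change 2.61, standard error 0.44, edgeR adjusted p = 3.1e-04). With correction for transcript length and GC content its log2 fold change was 1.498 (adjusted p = 0.00407), below the threshold on fold.

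Among 9 tested 17-beta-hydroxysteroid dehydrogenases, 4 passed both thresholds, with 3 of these higher in the embryo and 1 in the adult. *Hsd17b2*, which oxidises oestradiol and testosterone, ran from 1.32 through 3.81 to 4.61 CPM in the embryos and had 0.0485 and 0 CPM in the adults (log2 fold change 6.87, standard error 0.999, edgeR adjusted p = 6.9e-05, higher in 7 of 7 embryos). The adults had 2 counts in all, and the ratio of pooled levels was 128-fold with an exact 95% counting interval of 35.2 to 1059. Without adult 2 its log2 fold change was 6.04, and without adult 1 the remaining adult was at 0, so no fold is given. *Hsd17b3*, which makes testosterone in the testis, ran from 0.353 through 0.650 to 1.03 CPM and was at 0 in both adults, at least 7.80-fold higher in the mean of the embryos (edgeR adjusted p = 0.000997, 7 of 7 embryos). *Hsd17b10*, a mitochondrial enzyme that also acts in isoleucine breakdown, ran from 134 through 252 to 304 CPM against 34.9 and 34.7 (log2 fold change 2.79, standard error 0.39, edgeR adjusted p = 6.1e-05, 7 of 7 embryos). Under the length and GC correction its log2 fold change was 1.48, below the threshold on fold. *Hsd17b13*, a lipid droplet protein, ran from 0 through 0.0642 to 0.297 CPM against 0.630 and 0.843 in the adults (log2 fold change −3.11, standard error 1.07, edgeR adjusted p = 0.0223, lower in 7 of 7 embryos), or −3.79 without embryo 6. Its call was lost without adult 1 (log2 fold change −3.32, adjusted p = 0.0765) and with DESeq2 (−3.21, adjusted p = 0.0681), though the fold was no smaller. In all 4 genes the stages did not overlap. They had been picked by the call on fold, and the share of all genes without overlap was not counted, so nothing is read from this.

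Of the 11-beta-hydroxysteroid dehydrogenases, which convert corticosterone, the inactivating and the reactivating enzyme differed in opposite directions. *Hsd11b2*, which inactivates corticosterone, ran from 6.05 through 6.88 to 16.4 CPM in the embryos against 0.0727 and 0.309 in the adults. It was higher in 7 of 7 embryos (log2 fold change 5.45, standard error 0.73, edgeR adjusted p = 4.4e-05), with 4.72 without adult 1 and 6.75 without adult 2. *Hsd11b1*, which regenerates it, ran from 0 through 0.293 to 0.842 CPM in the embryos against 15.8 and 22.4 in the adults. It was lower in 7 of 7 embryos (log2 fold change −5.88, standard error 0.60, edgeR adjusted p = 4.7e-06).

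Among 5 tested aldo-keto reductases, which reduce steroid ketones, 3 passed the thresholds and each rested on few counts or on 1 adult. *Akr1c12* ran from 0.109 through 0.487 to 0.879 CPM in the embryos, against 0 and 0.0562 in the adults (log2 fold change 3.89, standard error 1.44, edgeR adjusted p = 0.0279, higher in 7 of 7 embryos). The adults had 2 counts in all, and the ratio of pooled levels was 16.7-fold with an exact 95% counting interval of 4.45 to 141. The call was lost without adult 1 (log2 fold change 2.92, adjusted p = 0.212), and without adult 2 the remaining adult was at 0. *Akr1c21* ran from 0.353 through 0.594 to 1.62 CPM, against 0.0970 and 0 (log2 fold change 3.81, standard error 1.23, edgeR adjusted p = 0.0157, higher in 7 of 7 embryos). The call was lost without adult 2 (log2 fold change 2.90, adjusted p = 0.142), and without adult 1 the remaining adult was at 0. With unstranded counts its log2 fold change was 2.88 (adjusted p = 0.0262). *Akr1c14*, a 3-alpha-hydroxysteroid dehydrogenase, was at 38.5 CPM in adult 1 and 0.422 in adult 2, and ran from 0.141 through 0.293 to 1.73 in the embryos, so the groups overlapped. Its log2 fold change of −4.89 (standard error 0.92, edgeR adjusted p = 0.000628, below both adults in 4 of 7 embryos) became 0.58 without adult 1 (adjusted p = 0.777) and −5.88 without adult 2.

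Of 5 tested regulators and receptors, 2 passed the thresholds, both higher in the adult. *Nr5a1*, the nuclear receptor that drives steroidogenic genes and is needed by gonadotrophs, ran from 0.842 through 2.50 to 3.61 CPM in the embryos against 51.6 and 50.8 in the adults (log2 fold change −4.38, standard error 0.37, edgeR adjusted p = 1.1e-06, lower in 7 of 7 embryos). *Nr4a1*, an immediate early nuclear receptor, ran from 1.95 through 4.25 to 4.78 CPM against 130.4 and 561 (log2 fold change −6.53, standard error 0.42, edgeR adjusted p = 1.1e-07, lower in 7 of 7 embryos). It was −7.25 without adult 1 and −5.13 without adult 2. The embryos with the highest *Hsd3b6*, 1 and 4, were at 2.86 and 2.12 CPM of *Nr5a1*, within the range of the other embryos.

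**Figure D5:**
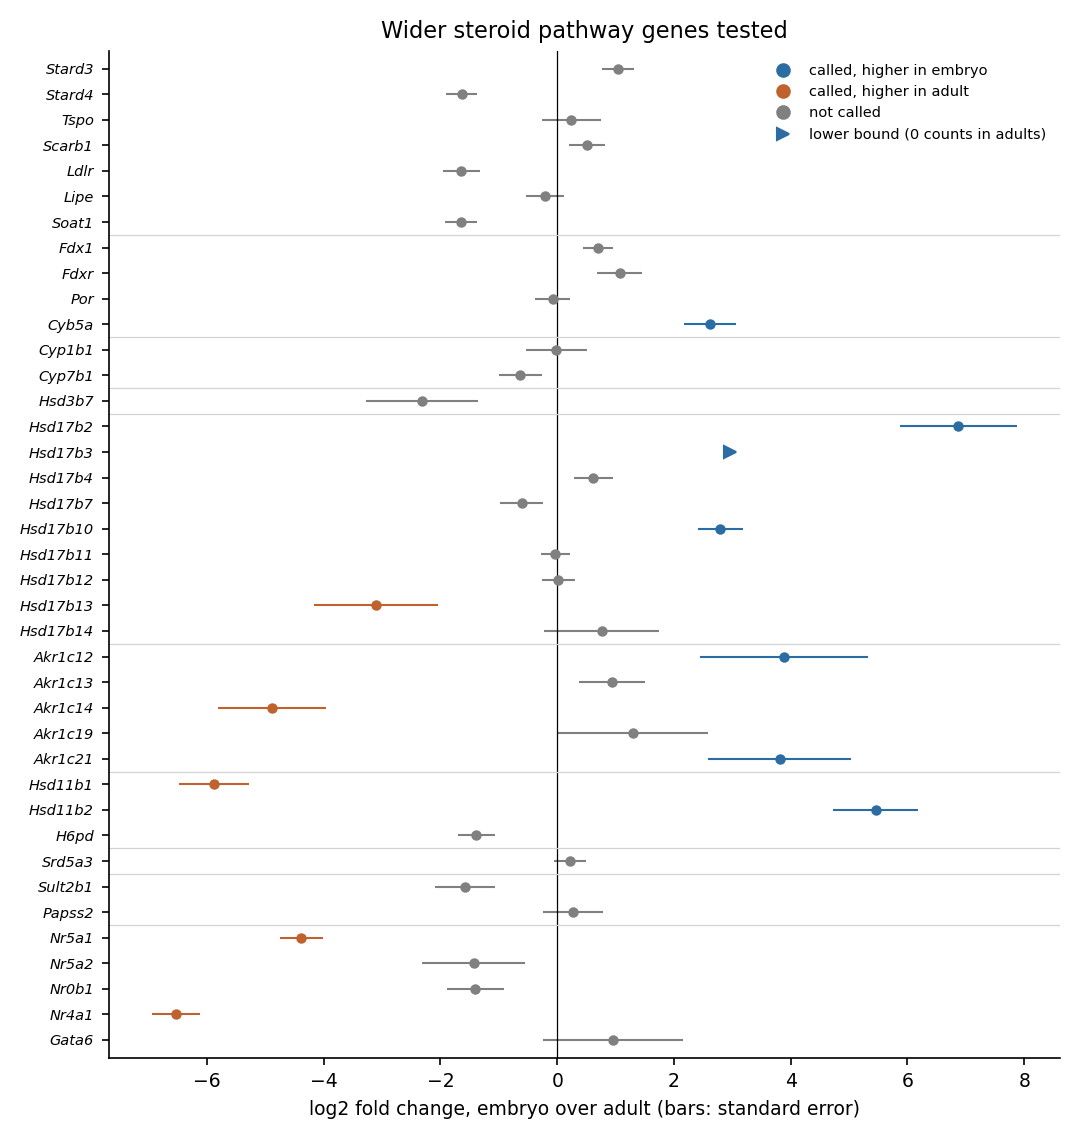
Log2 fold change of embryo over adult for the 39 tested genes of the wider list, grouped by role, with bars for 1 standard error. *Hsd17b3*, at 0 in both adults, is drawn as a lower bound with an arrow, and *Hsd17b2* lies highest at 6.87 and *Nr4a1* lowest at −6.53.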

How the data were processed

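The authors trimmed 75-base read pairs of directional poly(A) libraries with Trimmomatic 0.39 and aligned them to GRCm38 with STAR 2.7.5b, as the submitters' processing notes and the study's methods give. The deposited values are raw counts of read pairs per gene for 55450 genes. The strand-specific counts in column 4 were used, and read pairs on no gene were left out. Depth on genes was 16738863 to 36421545 per library. Identifiers were matched to the Ensembl 96 annotation (GENCODE M21), which gave symbols, positions and exon lengths.

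Counts were normalised by TMM in edgeR 4.0.16 (R 4.3.3), and the 19371 genes averaging 5 or more counts were fitted with the quasi-likelihood test, with stage as the only term. Genes were called at a Benjamini-Hochberg adjusted p below 0.05 and a fold change above 4. A fold against a stage at 0 was bounded by 3 counts, in the adult with the higher floor. Sequence and correlation steps used Python 3.11.15, numpy 2.4.6, pandas 2.3.3, scipy 1.17.1 and Biopython 1.88, with figures from matplotlib 3.10.9. Levels between genes were compared per kb of exon.

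The members and lists were chosen with earlier results of these data known. Genes named were the 9 members, all of the other Hsd3b family, the wider genes called, the most abundant and the zero markers of each list, and the 5 genes most like *Hsd3b6*, with *Alas2*, *Oxt* and *Tspo* chosen after their values were seen. *Hsd3b8*, *Hsd3b9* and *Sts* were not matched, and *Hsd17b8* was matched by synonym. The marker lists were early pituitary, pituitary hormone, adrenal cortex and gonad, trophoblast giant cell, stratified epithelium, mesenchyme, cartilage, skeletal muscle, neural and posterior pituitary, erythroid, endothelium and macrophage. Alternatives were DESeq2 1.42.0, its size factors, library size alone, 2 other filters on low counts, unstranded counts, a replicate block, each library left out, embryos 1 and 4 left out, a length and GC correction and a fold threshold of 2. Leaving out the 6 globin genes was chosen after seeing the data.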

Additional observations from a re-analysis of the deposited data

Results flagged for a closer look

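Of 42 quantities compared across the 7 embryos by the gap test of Dixon, 8 had an embryo far from the others. Chance gives about 1 in 20 for independent, normally distributed values. Several of the 8 rest on few counts or on related genes in the same embryo, so nothing is read from their number. In embryo 4, *Hsd3b1* was at 4.80 CPM with the next embryo at 0.879, *Hsd3b2* was at 3.17 CPM with the next at 0.338, and *Hsd3b3* was at 0.635 CPM with the next at 0.0338. Embryo 4 also had the highest *Hsd3b6* and globin.

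In embryo 2, *Cyp11a1* was at 0.338 CPM with the next embryo at 0.122, *Hsd17b1* was at 0.439 CPM with the next at 0.162, and *Hsd11b2* was at 16.4 CPM with the next at 9.35. The summed neural and posterior pituitary markers were at 350.1 CPM in embryo 2, with the next embryo at 196. In embryo 6, *Hsd17b13* was at 0.297 CPM with the next at 0.122. What sets these embryos apart was not tested.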

How the results depend on the processing

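Over the 19 alternatives run, the lower bound of the log2 fold change of *Hsd3b6* lay between 9.25, without both embryos 1 and 4, and 11.40. With both adults at 0 counts no alternative could turn its direction. With each library left out in turn it was 10.34 to 11.19. Its range across embryos was 16.5-fold with library size alone, 3.80-fold without both embryos 1 and 4, and 12.8-fold to 26.4-fold with each embryo left out. With the 6 globin genes left out, chosen after seeing the data, it was 25.6-fold.

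With a fold threshold of 2, 8960 genes and 20 wider genes were called, more because the threshold is lower. The split of wider calls, 7 higher in the embryo and 5 in the adult, was 9 and 11 at that threshold. It was 5 and 8 with the length and GC correction and 5 and 6 under the replicate block, while the other settings kept more in the embryo. Under the length and GC correction 4054 genes were called, 3066 of them among the 5001 of the main fit. With each library left out, 3683 to 5290 genes and 9 to 13 wider genes were called, where a lone adult is assumed to vary like the embryos. *Akr1c14* was −5.88 without adult 2 and reversed without adult 1 (0.58), and the cause was not tested. Among the other genes of the 9, the log2 fold change ran from −6.12 to −4.27 for *Cyp17a1*, −3.70 to −2.19 for *Hsd17b1*, −2.51 to −1.35 for *Star* and 0.49 to 1.35 for *Srd5a1*. Of 227 pairs of a called wider gene and a setting, 217 kept direction and call, 9 lost the call and 1 reversed.

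A replicate block on replicates 1 and 2 called 4151 genes and 11 wider genes, 9 of them among the 12, with a *Hsd3b6* bound of 11.40. The deviations of same-numbered animals correlated at 0.033 and 3e-04, so the numbers do not pair them. The calls of *Hsd17b13* (adjusted p = 0.0842), *Akr1c12* (0.137) and *Akr1c21* (0.201) were lost under the block. Their log2 fold changes were −7.53, 4.95 and 4.24 with the block, against −3.11, 3.89 and 3.81 without it, so no fold was smaller. Without adult 2, *Hsd17b13* and *Hsd17b1* averaged under 5 counts and gave no value. Library size alone moved the median log2 fold change of all genes from −0.04 to −0.26. Counts of 10 or fewer in most libraries limit each of the 9 genes except *Hsd3b6* and *Srd5a1*.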

Other observations

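*Tspo*, the mitochondrial translocator protein, was chosen after its values were seen. It was at 74.8 and 81.3 CPM in embryos 1 and 4, at most 35.3 CPM in the other 5, with embryo 7 the lowest, and at 34.2 and 36.7 CPM in the adults. Embryos 4, 1 and 7 had the same places for *Hsd3b6*. It did not pass the test between the stages (edgeR adjusted p = 0.706, log2 fold change 0.24), with 2 of 7 embryos above both adults and 4 below both. The positive fold rested on embryos 1 and 4, since the embryo mean was 42.1 CPM with them and 27.7 without, against an adult mean of 35.4. The link of *Tspo* with *Hsd3b6* was not tested.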
